A study of Homo sapiens with 2 samples.

Results

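The 44 genes described here encode enzymes that modify transfer RNA, and partner proteins of those enzymes. They were taken by gene name from a list of 45 by a rule that uses no measured value, and 1 gene of the list is not reported here. Of the 44, 34 had a row in at least 1 of the tables, out of 10145 genes in all. The tables come from PAR-CLIP, in which a photoactivatable nucleoside is built into RNA so that crosslinking and immunoprecipitation mark where a protein touches RNA in living cells. It was done for 2 zinc finger proteins of the CCCH kind, ZC3H7A and ZC3H7B. The cells were HEK293, a line derived from human embryonic kidney, and each protein was overexpressed with a Flag/HA tag by 24 h of doxycycline at 1 µg/mL. Both libraries shared this induction, 16 h of labelling with 100 µM 4-thiouridine and crosslinking at 365 nm. There was 1 library per protein, named replicate 1, and no untagged or uninduced library was analysed here, so replicate spread is unknown and differences between the proteins are described without a test. The series title speaks of codons and of the translation and stability of messenger RNA, and the question asked of these genes is how their transcripts were recovered with each protein.

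A transfer RNA is decorated after transcription at many bases. Modifications in the anticodon loop, above all at the wobble base, tune how codons are read, and those in the body of the molecule help it to fold and protect it from decay. The enzymes measured here act on transfer RNA, but what was measured is contact of ZC3H7A and ZC3H7B with their messenger RNAs.

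Overlapping reads with T-to-C conversions, the mark of a crosslinked 4-thiouridine, had been grouped into clusters, and each table gives the clusters and reads of a gene. With ZC3H7A there were 3779662 reads, 51808 clusters and 8204 genes, and with ZC3H7B 2409465 reads, 99805 clusters and 9159 genes. A distinct read had a mean of 12.6 copies with ZC3H7A but 1.99 copies with ZC3H7B, so both reads and distinct reads are given. No molecular identifiers are described, and reads that are PCR copies are not independent molecules. All intervals are exact 95% intervals that cover counting error only. Those from reads treat each copy as independent, so they are too narrow where reads are copies. ZC3H7A, the first tagged gene, had 82704 reads in its own library and 158 in the other, and ZC3H7B had 3768 reads in its own and 1362 in the other. Of 6 genes chosen as typical of HEK293, 4 were listed in each library, with no row for NEFM or PAX2, and of 6 genes of other cell types 0 were listed in either. Where a gene has no row, no cluster was called on it, and its reads are not known to be 0. RNA levels were not analysed here, so more binding and more copies of a transcript cannot be told apart.

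Most of the enzymes' transcripts were recovered with both proteins. The ZC3H7A library listed 31 of the 44 (70.5%) and the ZC3H7B library 33 (75%), 30 of them shared. Among all 20056 annotated coding genes, expressed or not, 37.8% and 42.0% were listed. Of the 10145 genes with a row in at least 1 table, 7218 had a row in both. The 10 genes with no row in either table were CTU2, FTSJ1, QTRT1, OSGEP, DUS1L, DUS2, DUS3L, TRMT1, METTL1 and PUS10. The enzymes were not among the most heavily covered genes as a rule. Their reads ran from 10 to 8090 with a median of 110 in the ZC3H7A library, where the median gene had 135.5, and from 5 to 693 with a median of 52 in the ZC3H7B library, where it had 82. In distinct reads their medians were 10 and 27, against 13 and 47 for the median gene. Coverage was uneven, since 4 genes (TRMT10C, TYW3, TRUB1 and TRMT5) took 78.9% of the enzymes' reads with ZC3H7A and 44.5% with ZC3H7B.

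**Figure D1:**
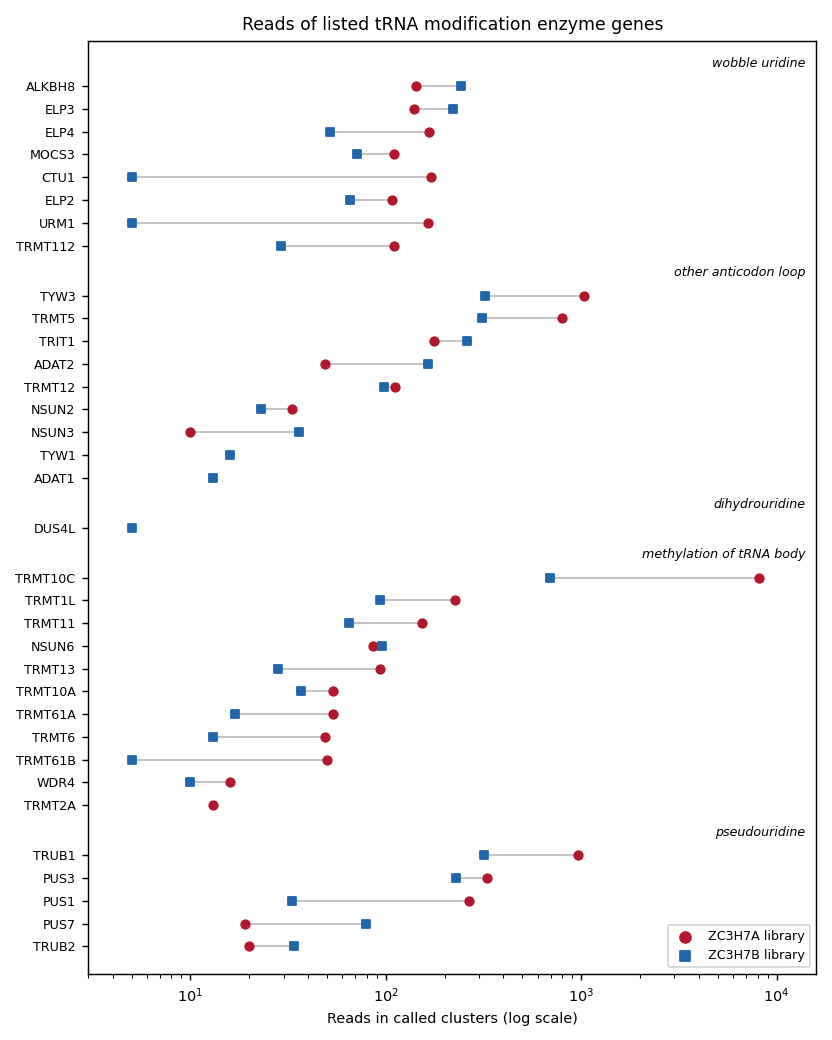
Reads in called clusters (log axis) of the 34 listed genes, by the kind of modification, with circles for the ZC3H7A library and squares for the ZC3H7B library. TRMT10C stands apart at 8090 reads in the ZC3H7A library, and 4 genes have a point in 1 library only.

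Ratios are given as log2 of reads in the ZC3H7B library over reads in the ZC3H7A library, shifted to put the median gene at 0 over the 7168 genes of both tables whose reads sum to at least 20, and a negative value means higher in the ZC3H7A library. A gene was called higher in a library where its whole interval lay beyond 2-fold. Of the 30 enzymes compared, 6 were higher in the ZC3H7A library, which is 20% against 18.0% of all genes. These were CTU1, URM1, TRMT10C, PUS1, TRMT61B and TYW3. A further 3 were higher in the ZC3H7B library, which is 10.0% against 18.2% of all genes, namely PUS7, NSUN3 and ADAT2. The first share is near the background and the second is a count of 3, so neither is read as a result about these enzymes as a group. The median ratio of the 30 was -0.48. With scaling to total reads the split was 5 and 5, and the shares of all genes moved to 15.5% and 21.2%. In distinct reads 4 were called higher in the ZC3H7A library (background 10.1%) and 1 in the ZC3H7B library (background 7.28%). CTU1, URM1, TRMT10C and PUS1 kept their call towards ZC3H7A and ADAT2 its call towards ZC3H7B. By mean reads per cluster, 3 enzymes (TRMT10C, TRMT5 and TRMT1L) were called higher with ZC3H7A, against 4.65% of all genes, and 0 with ZC3H7B, against 6.18%. Intervals of mean reads per cluster take the numbers of clusters as fixed. They leave out the counting error of clusters and are too narrow where clusters are few.

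**Figure D2:**
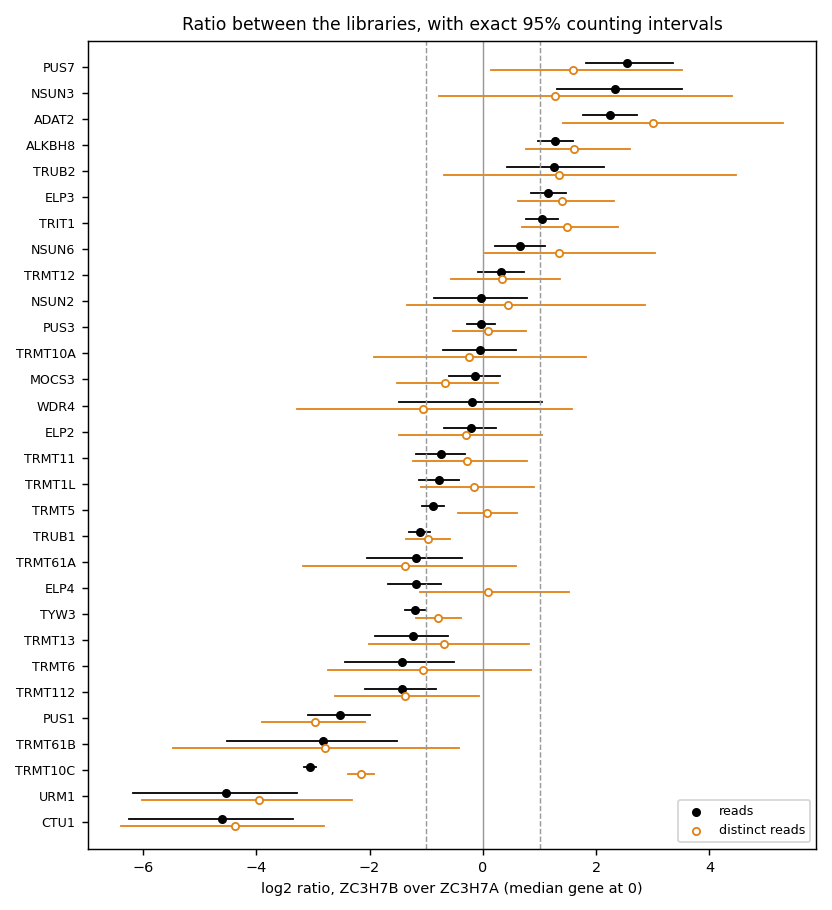
Log2 ratio of ZC3H7B over ZC3H7A for the 30 genes compared, from reads (filled) and from distinct reads (open), with exact 95% intervals for counting error as lines and 2-fold marked by dashed lines. CTU1, URM1, TRMT10C and PUS1 lie beyond the left dashed line in both counts, and ADAT2 beyond the right one.

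Among the genes of wobble uridine modification, CTU1 and URM1 differed most between the libraries. In this pathway the Elongator complex starts a side chain on the wobble uridine, ALKBH8 with its partner TRMT112 completes it, and CTU1 with CTU2 replaces an oxygen with sulfur delivered by URM1, which MOCS3 activates. Of 9 genes 8 were listed in both tables, ZC3H7A had 2 called higher and ZC3H7B 0, against 18.0% and 18.2% of all genes, which a group of 8 is too small to be read against. CTU1 and URM1, both of the sulfur branch, had the lowest ratios of all 30 enzymes.

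CTU1 had 171 reads (20 distinct) in 6 clusters with ZC3H7A and 5 reads (4 distinct) in 1 cluster with ZC3H7B. Its log2 ratio was -4.60 (-6.24 to -3.35), or -4.38 (-6.39 to -2.80) in distinct reads. URM1, a ubiquitin-like sulfur carrier, had 164 reads (15 distinct) in 5 clusters and 5 reads (4 distinct) in 1 cluster, a ratio of -4.54 (-6.18 to -3.29), or -3.96 (-6.01 to -2.31) in distinct reads. Both genes thus stood near the middle of the genes of the ZC3H7A library and near the lowest of the ZC3H7B library, where the lowest read sum of any gene was 4. By mean reads per cluster neither kept an interval beyond 2-fold, at -1.04 and -1.25. MOCS3 did not share this difference. It had 110 reads in 4 clusters and 71 reads in 6 clusters, a ratio of -0.14 (-0.59 to 0.30). For CTU2, the partner of CTU1, neither table had a row.

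The subunit genes of Elongator described here, ELP2, ELP3 and ELP4, had no common direction. ELP3, the catalytic subunit, had 140 and 222 reads in 5 and 15 clusters, a ratio of 1.16 (0.85 to 1.47). ELP2, a scaffold subunit with WD repeats, had 108 and 66 reads, a ratio of -0.22 (-0.68 to 0.24). ELP4, of the accessory ring, had 167 and 52 reads, a ratio of -1.19 (-1.67 to -0.73). These 167 reads were 7 distinct reads, and in distinct reads the ratio of ELP4 was 0.09 (-1.12 to 1.52). None of the 3 was called in a direction.

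The genes of the methyl ester step lay on opposite sides of the median gene. ALKBH8, which carries a methyltransferase and an oxygenase domain, had 142 reads in 4 clusters and 244 reads in 20 clusters, a ratio of 1.27 (0.97 to 1.58). TRMT112, the small activator of several methyltransferases, had 110 reads in 2 clusters and 29 reads in 1 cluster, a ratio of -1.43 (-2.07 to -0.83). Neither interval lay wholly beyond 2-fold. Of the 20 ALKBH8 clusters in the ZC3H7B library 15 were in the 3' UTR.

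Other enzymes of the anticodon loop included well-covered genes of the wybutosine pathway and several with no row. Of 12 genes 7 were listed in both tables, ADAT1 and TYW1 only for ZC3H7B, and FTSJ1, QTRT1 and OSGEP in neither. One gene, TYW3, was higher in the ZC3H7A library, and NSUN3 and ADAT2 were higher in the ZC3H7B library. Of all genes 18.0% and 18.2% were called, and a group of 7 is too small to be read against that.

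Wybutosine is a large base built beside the anticodon of phenylalanine transfer RNA from a guanosine that TRMT5 methylates first, after which TYW1, TRMT12 and TYW3 act in turn. TYW3 had 1036 reads (76 distinct) in 12 clusters with ZC3H7A and 321 reads (183 distinct) in 18 clusters with ZC3H7B. Its ratio was -1.20 (-1.38 to -1.02), just past the limit, and -0.79 (-1.18 to -0.38) in distinct reads, which is not. TRMT5 had 802 reads (39 distinct) in 9 clusters and 310 reads (170 distinct) in 24 clusters. From reads its ratio was -0.88 (-1.07 to -0.69) and from distinct reads 0.07 (-0.44 to 0.61), so its direction depended on the count used. TRMT12 had 111 and 98 reads, a ratio of 0.31 (-0.09 to 0.72). TYW1 had no row for ZC3H7A and 16 reads in 1 coding cluster for ZC3H7B, and a near-identical copy, TYW1B, may share its reads.

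Deaminases turn adenosine into inosine, and ADAT2, the catalytic subunit for the wobble position, gave the one call towards ZC3H7B that distinct reads also gave. It had 49 reads (3 distinct) in 1 cluster with ZC3H7A and 164 reads (100 distinct) in 11 clusters with ZC3H7B, 10 of them in the 3' UTR. The ratio was 2.24 (1.77 to 2.73), or 3.0 (1.41 to 5.30) in distinct reads. By mean reads per cluster it was -0.25, and by number of clusters 2.53 (-0.25 to 7.96), with no call in either. ADAT1, which deaminates a neighbouring base in alanine transfer RNA, had 13 reads in 1 cluster for ZC3H7B, in no named region.

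The cytosine methyltransferases NSUN3 and NSUN2 had few reads, while TRIT1 was above the median gene in both libraries. NSUN3, which acts on the wobble cytosine of mitochondrial methionine transfer RNA, had 10 reads (2 distinct) in 1 intronic cluster and 36 reads (20 distinct) in 5 clusters, a ratio of 2.34 (1.30 to 3.52). In distinct reads its interval reached from -0.78 to 4.41. NSUN2, which methylates many cytosolic transfer RNAs, had 33 reads in 1 cluster and 23 reads in 3 clusters, a ratio of -0.03 (-0.86 to 0.78). TRIT1, which attaches an isopentenyl group to adenosine beside the anticodon, had 177 reads in 4 clusters and 260 reads in 19 clusters, a ratio of 1.05 (0.77 to 1.33). Its ZC3H7B clusters were spread over introns (7), coding sequence (5) and the 3' UTR (6).

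Dihydrouridine synthases, which reduce uridine in the D loop of transfer RNA, were almost absent from both tables. Of DUS1L, DUS2, DUS3L and DUS4L, only DUS4L had a row, with 5 reads (4 distinct) in 1 coding cluster for ZC3H7B.

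Methyltransferases of the transfer RNA body held the gene with the most reads of all 44, TRMT10C. Of 13 genes 10 were listed in both tables, TRMT2A only for ZC3H7A, and TRMT1 and METTL1 in neither. TRMT10C and TRMT61B, both of mitochondrial enzymes, were higher in the ZC3H7A library and 0 were higher in the ZC3H7B library. The shares of all genes were 18.0% and 18.2%, against which a group of 10 is too small to be read. The median ratio of the 10 was -0.97.

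TRMT10C encodes a purine methyltransferase that is also a subunit of mitochondrial ribonuclease P. It had 8090 reads in 18 clusters with ZC3H7A, rank 34 of 8204 genes, and 693 reads in 17 clusters with ZC3H7B, rank 862 of 9159. Its ratio was -3.05 (-3.17 to -2.94), an 8.30-fold higher value in the ZC3H7A library. The distinct reads were nearly equal in number, 319 and 299, while the median gene had many more distinct reads in the ZC3H7B library, so the scaled ratio in distinct reads was -2.15 (-2.38 to -1.92), or 4.44-fold. Each distinct read of TRMT10C was counted 25.4 times with ZC3H7A, more than for 99% of genes there, and 2.32 times with ZC3H7B. By mean reads per cluster its interval still lay beyond 2-fold, at -2.00 (-2.11 to -1.88). Its clusters lay mostly in coding sequence in both libraries, 14 of 18 and 13 of 17, with 1 in the 5' UTR in each. TRMT10C alone made up 58.5% of all reads of the 44 enzymes with ZC3H7A but 18.8% with ZC3H7B.

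TRMT61B, which methylates adenosine in mitochondrial transfer RNA, had 50 reads (5 distinct) and 5 reads (3 distinct), in 1 coding cluster in each library. Its ratio was -2.83 (-4.51 to -1.51), and in distinct reads the interval from -5.48 to -0.43 no longer lay beyond 2-fold. The cytosolic enzyme for that base is a complex of TRMT6 and TRMT61A, whose genes had like levels. TRMT6 had 49 and 13 reads in 2 clusters each, and TRMT61A had 54 and 17 reads in 2 clusters each, with ratios of -1.42 (-2.43 to -0.52) and -1.17 (-2.05 to -0.37). Neither was called.

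The other body methyltransferases were also not called. TRMT1L, a paralogue of TRMT1, had 226 and 94 reads in 2 and 6 clusters, a ratio of -0.77 (-1.14 to -0.42). By mean reads per cluster its interval lay beyond 2-fold, at -1.38, with these few clusters taken as fixed numbers. TRMT11, a guanosine methyltransferase that works with TRMT112, had 153 and 65 reads, a ratio of -0.74 (-1.18 to -0.31). TRMT13, a ribose methyltransferase, had 93 and 28 reads, a ratio of -1.24 (-1.90 to -0.62). The remaining genes lay closer to the median gene. TRMT10A, the cytosolic relative of TRMT10C, had 54 and 37 reads at a ratio of -0.05 (-0.70 to 0.58), far from the value of TRMT10C. NSUN6, which methylates a cytosine in the acceptor stem, was the only body methyltransferase with a ratio above 0, with 86 and 96 reads at 0.65 (0.22 to 1.09). WDR4, the partner of the guanosine methyltransferase METTL1, had 16 and 10 reads in 1 intronic cluster in each library. TRMT2A, a uridine methyltransferase, had 13 reads (2 distinct) in 1 coding cluster.

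Pseudouridine synthases, which rotate uridine into its isomer, pointed in both directions. Of 6 genes 5 were listed in both tables, with PUS10 in neither. PUS1 was called higher with ZC3H7A and PUS7 with ZC3H7B. Calls were made for 18.0% and 18.2% of all genes, and 5 genes are too few to be read against that.

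PUS1, which acts on cytosolic and mitochondrial transfer RNA, had 266 reads (32 distinct) in 8 clusters with ZC3H7A and 33 reads (17 distinct) in 4 clusters with ZC3H7B. Its ratio was -2.52 (-3.09 to -1.99), or -2.97 (-3.91 to -2.08) in distinct reads. By mean reads per cluster it was -0.54, with no call. In the ZC3H7A library 4 of its clusters were coding, 3 in the 5' UTR and 1 in the 3' UTR, and in the ZC3H7B library 2 were in introns and 2 in coding sequence. PUS1 thus held 3 of the 5 clusters in 5' UTRs of all these enzymes in the ZC3H7A library.

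PUS7, which also modifies messenger RNA, had 19 reads (4 distinct) in 2 clusters and 79 reads (50 distinct) in 9 clusters, 5 of them intronic. Its ratio was 2.55 (1.81 to 3.35), and in distinct reads the interval from 0.14 to 3.52 was not beyond 2-fold. TRUB1, a synthase of the T loop, had 969 reads (85 distinct) and 319 reads (180 distinct), a ratio of -1.11 (-1.30 to -0.93), just short of a call. PUS3, which acts in the anticodon arm, had 330 and 229 reads, a ratio of -0.03 (-0.28 to 0.21), the most even of the well-covered genes. TRUB2, a mitochondrial synthase, had 20 and 34 reads, a ratio of 1.26 (0.42 to 2.13).

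The calls towards ZC3H7B rested on few molecules in the ZC3H7A library, and some of those towards ZC3H7A on few in the ZC3H7B library. NSUN3, ADAT2 and PUS7 had 2 to 4 distinct reads with ZC3H7A. CTU1, URM1 and TRMT61B had 3 or 4 with ZC3H7B. In the ZC3H7A library 12 of the 31 listed enzymes had 5 or fewer distinct reads, against 4 of 33 in the ZC3H7B library. The shares of all genes with so few were not worked out. Among the 21 enzymes with at least 100 reads summed, ADAT2 was the only one called higher in the ZC3H7B library, against 18.8% of all genes. At that minimum 5 were called higher in the ZC3H7A library, against 19.7% of all genes.

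The clusters of these enzymes lay in coding sequence more often than those of other genes in both libraries. Of their clusters 76 of 128 (59.4%, 50.3 to 68.0%) were coding with ZC3H7A, where the clusters of all other genes stood at 42.6%. With ZC3H7B it was 90 of 234 (38.5%, 32.2 to 45%), where other genes stood at 29.5%. The 3' UTR held 26.6% (19.1 to 35.1%) and 46.6% (40.1 to 53.2%) of the enzymes' clusters, and 39.8% and 55.9% of those of other genes. Clusters of 1 gene share a transcript and are not independent, so these intervals are too narrow, and no test of the difference from other genes was made. Without TRMT10C, which held 14 and 13 of the coding clusters, the coding shares were 56.4% and 35.5%. By kind of enzyme, coding sequence held 76.3% and 68.9% of the clusters of body methyltransferases. It held 38.7% and 34% of those of the wobble uridine genes. For the other anticodon loop enzymes the shares were 60.0% and 30.0%, and for pseudouridine synthases 58.6% and 28.9%. With ZC3H7A the share of the wobble uridine genes was 12 of 31 clusters. Its interval of 21.9 to 57.8% held the 42.6% of other genes. With ZC3H7B the body methyltransferases stood well above the 29.5% of other genes, but TRMT10C alone held 13 of their 31 coding clusters. A share without TRMT10C was not worked out for this kind. The last 3 kinds lay near 29.5% with ZC3H7B.

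**Figure D3:**
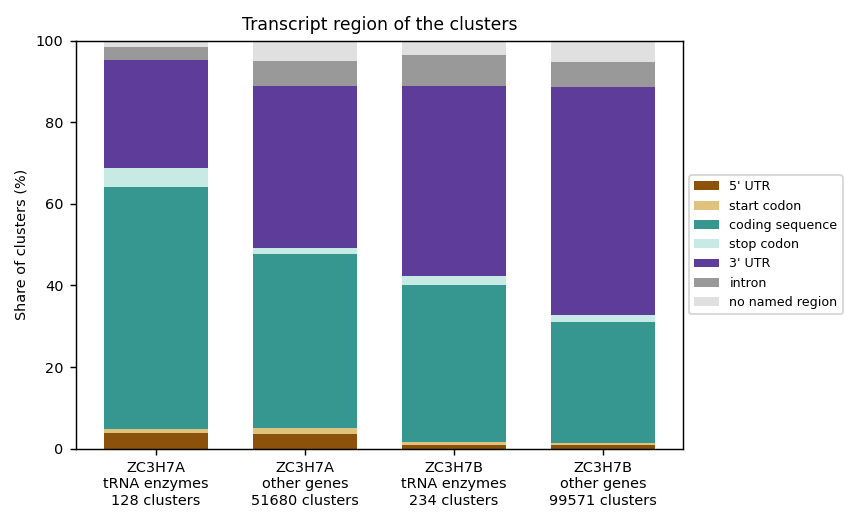
Share of clusters by transcript region for the tRNA modification enzyme genes and for all other genes in each library, as stacked bars that sum to 100%. Coding sequence takes 59.4% and 38.5% of the enzymes' clusters and 42.6% and 29.5% of those of other genes.

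Within single enzymes the coding share was mostly lower in the ZC3H7B library. Of the 13 with at least 3 clusters in both libraries, 9 had a higher coding share in the ZC3H7A library (69.2%, against 67.8% of all genes), 2 in the ZC3H7B library (background 22.8%) and 2 were equal. The median difference was -20.0 percentage points, and -10.0 over all 4517 genes. The share of enzymes that shifted is near the background. In 8 of the 13 the ZC3H7B library had the higher 3' UTR share, as in 69.2% of all genes.

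TRMT5 shifted most. With ZC3H7A 8 of its 9 clusters were coding, and with ZC3H7B 7 of 24, the other 17 being in the 3' UTR. These are unscaled counts, and the libraries held 51808 and 99805 clusters in all. Whether clusters of TRMT5 lay at the same positions in both libraries was not examined. TRUB1 had 5 of 12 and 1 of 18 in coding sequence, with 4 and 15 in the 3' UTR. MOCS3 had 3 of 4 and 2 of 6. TYW3 changed less, with 5 of 12 and 6 of 18. Some enzymes had little or no fall in coding share. TRMT11 had all 4 and all 6 clusters in coding sequence, and TRMT10C stood at 77.8% and 76.5%, with 1 of 18 and 2 of 17 in the 3' UTR. PUS3, with 6 of 6 and 8 of 11 in coding sequence, had none in the 3' UTR in either library. ELP2, with 2 of 3 and 5 of 5, and ALKBH8, with 0 of 4 and 3 of 20, had the higher coding share with ZC3H7B, although the 3' UTR share of ALKBH8 was higher there too, with 2 of 4 and 15 of 20.

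**Figure D4:**
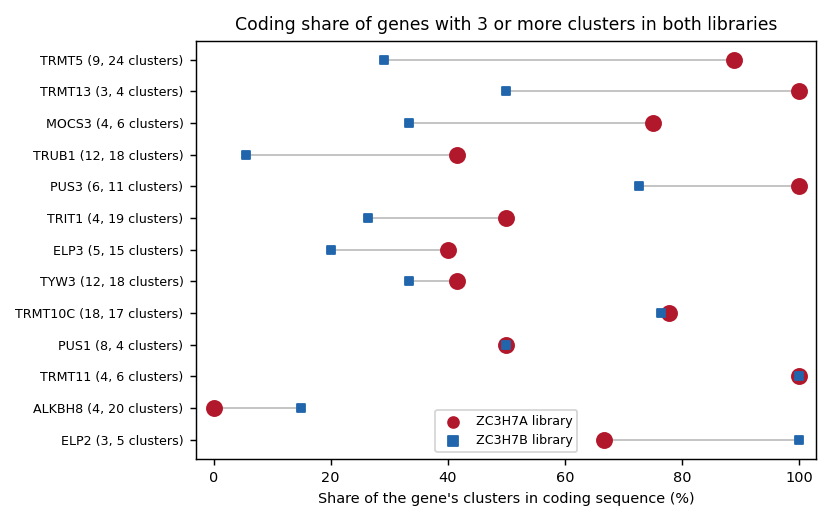
Share of a gene's clusters in coding sequence for the 13 enzymes with at least 3 clusters in both libraries, with circles for ZC3H7A, squares for ZC3H7B and the numbers of clusters beside the names. TRMT5 falls from 88.9% to 29.2%, and PUS1 and TRMT11 are equal at 50.0% and 100%.

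Conversion was high in the enzymes' clusters, as in those of other genes. The T-to-C share averaged over the clusters of a gene had a median of 100% over the listed enzymes with ZC3H7A and 92.0% with ZC3H7B, against 97.4% and 91.1% for the median gene. It was 100% for 17 of 31 and 6 of 33 enzymes, against 38.1% and 16.3% of all genes. Each of these 17 had 15 or fewer distinct reads with ZC3H7A, and whether depth bears on the share was not tested. NSUN2 was lowest in both libraries, at 60.6% in its 1 ZC3H7A cluster and 75.3% over its 3 ZC3H7B clusters. PUS1 at 78.3% and TRUB1 at 83.9% followed in the ZC3H7A library. TRMT10C, with the most reads, stood at 95.0% and 91.6%.

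A further 46 genes of transfer RNA modification, listed beside the 44, were also mostly recovered with both proteins. Of these 34 were listed for ZC3H7A and 36 for ZC3H7B, 29 in both. Of the 29 compared, ZC3H7A had 5 called higher and ZC3H7B 1, where 18.0% and 18.2% of all genes were called, and the median ratio was -0.40. In distinct reads the calls were 2 and 1, where 10.1% and 7.28% of all genes were called. The 4 with the most reads were called in neither direction. THUMPD1, an adaptor for acetylation of cytidine, had 1875 and 1964 reads, a ratio of 0.56 (0.47 to 0.65). YRDC, which makes the donor for threonylcarbamoylation, had 1488 and 1487 reads at 0.49 (0.39 to 0.60). PUS7L, a paralogue of PUS7, had 993 and 455 reads at -0.63 (-0.80 to -0.47). QTRTD1, the partner of QTRT1 in queuosine insertion, had 595 and 793 reads at 0.91 (0.75 to 1.06), while QTRT1 itself had no row.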

How the data were processed

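The samples, 1 PAR-CLIP library for each tagged protein, were grouped by title. The submitters' processing notes name STAR 2.5.2a, Bowtie, cutadapt and build hg19. How clusters were called is not given in the sources used here. Deposited by the authors was 1 table per library with, per the file headers, counts of clusters, reads, distinct reads and clusters per region for each gene. The deposited T-to-C fraction was averaged over clusters from its deposited sum, a score. Conversion specificity, a deposited score of unstated scale, was not used. The exon column was read as coding sequence, since in rows with 1 cluster it matched the coding class in 2200 of 2200 and 1762 of 1762. Rows of repeats and small RNA classes were left out of gene comparisons, 282 and 407 rows with 1.57% and 1.51% of reads.

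Ratios were scaled to the median gene. Before scaling that gene stood at a log2 of -0.49 in reads and 2.06 in distinct reads. Intervals are exact Clopper-Pearson intervals on the share of a gene's reads. The interval step was run on simulated independent counts without PCR copies, so that run cannot show how the intervals behave for copied reads. Alternatives were distinct reads, mean reads per cluster, clusters, TMM factors (edgeR 4.0.16 in R 4.3.3, for scaling only), total reads, other minimums, missing genes at 0 and a limit of 1.5-fold. A gene's read sum covers the clusters of its own table, so it moves with how many were called there. Members, lists and rules were chosen with earlier results of these data known. Of the 45 members 44 were analysed and named, 1 is not reported here, and of the further 46 genes the 4 with the most reads are named in the results, and 6 more in the closing section after their values were seen. Symbols were matched to RefSeq names of GRCh38.p14, which served for names only. The tools were scipy 1.17.1, numpy 2.4.6, pandas 2.3.3, Python 3.11.15 and matplotlib 3.10.9.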

Additional observations from a re-analysis of the deposited data

Results flagged for a closer look

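The tables also hold rows for transfer RNA families, the substrates of these enzymes, which no comparison above used. The ZC3H7A table had 18 such rows with 9722 reads (480 distinct) in 34 clusters, which is 0.253% of all its reads (0.248 to 0.258%). The ZC3H7B table had 8 such rows with 689 reads (109 distinct) in 8 clusters, or 0.0282% (0.0261 to 0.0303%). In both libraries the family with the most reads was the arginine transfer RNA labelled AGA, with 5449 and 400 reads. Both tables listed 6 of the families. The mean T-to-C share of these clusters was 73.2% and 75.5%. There is no control library to set a background, copies of a family share sequence, and whether these reads come from binding was not tested.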

How the results depend on the processing

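No paired analysis was possible because each protein has 1 library. The counts of 6 enzymes higher in the ZC3H7A library and 3 higher in the ZC3H7B library became 4 and 1 in distinct reads, 3 and 0 by mean reads per cluster, 0 and 0 by number of clusters (16 and 23 of all genes), 5 and 1 among genes with at least 100 reads summed (19.7% and 18.8% of all genes), and 11 and 6 with a limit of 1.5-fold (25.9% and 26.8%). By mean reads per cluster TRMT10C was the one of the 6 that kept its call, and ADAT2 changed sign, to -0.25; the cause was not tested. TMM scaling, no minimum of reads and missing genes at 0 left 6 and 3. The shares of all genes were then 18.5% and 17.3%, 18.0% and 18.1%, and 23.4% and 24.1%. Total reads moved the median of all genes by 0.16 and gave 5 and 5. The median ratio of the enzymes ranged from -0.80 to -0.27 over the alternatives. The counts of 9 and 2 of 13 enzymes with a higher coding share in the ZC3H7A and ZC3H7B library depended on the setting. They were 16 and 6 of 30 with at least 1 cluster, and 6 and 0 of 6 with at least 5, where fewer genes enter. With start and stop codon clusters added they were 10 and 1 of 13. The share of all genes is given for the main setting only, so these other counts are not read against a background. Listing and coding shares moved by less than 1.5 times, and leaving out TRMT10C was chosen after seeing the data. Depth limits genes such as CTU1, URM1 and TRMT61B, with 5 reads in the ZC3H7B library.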

Other observations

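Among the further genes of transfer RNA modification, those named here were chosen after their values were seen. RPUSD4, a mitochondrial pseudouridine synthase, was the one called higher in the ZC3H7B library, with 16 reads in 1 cluster for ZC3H7A and 98 reads in 7 clusters for ZC3H7B, a log2 ratio of 3.11 (2.34 to 3.97). KTI12, a regulator of Elongator, had 82 and 5 reads at -3.54 (-5.20 to -2.26), and LCMT2, which acts late in the wybutosine pathway, had 123 and 14 reads at -2.64 (-3.56 to -1.84). Both were also called higher in the ZC3H7A library in distinct reads. GTPBP3 and MTO1, which together modify the wobble uridine of mitochondrial transfer RNA, had 461 and 116 reads at -1.50 (-1.80 to -1.20) and 96 and 75 reads at 0.14 (-0.32 to 0.59). ADAT3, the partner of ADAT2, had 42 reads in 1 cluster for ZC3H7A and no row for ZC3H7B, whereas ADAT2 had 49 and 164 reads.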
